A study of Rattus norvegicus with 8 samples.

Results

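The genes described here act in the cell cycle and in DNA replication, and were measured in the hypothalamus of rats after an injection of retinoic acid (RA). They were chosen by symbol as 56 genes, of which 13 were grouped under G1, 23 under S and 20 under mitosis by the role of their products, and the MCM helicase genes were left out. These genes, and the further gene and marker lists below, were chosen with earlier results of these data known. A probe carrying the gene's name was found on the array for 51 of the 56, among 15159 genes that could be named in all. *Rpa1*, *Mki67*, *Top2a*, *Bub1b* and *Melk* had no such probe and were not analysed here. Each gene was represented by its brightest probe.

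Both groups were male F344N rats kept in short photoperiod (SD), and all had a cannula placed in the third ventricle of the brain. The RA group received all-*trans* RA, the active form of vitamin A, at a labelled concentration of 1e-05 M. The control group received vehicle, labelled as saline. The methods name a higher concentration of RA and a vehicle of DMSO in saline, and the difference could not be settled. Blocks of hypothalamus that include the arcuate nuclei were taken the next day, and ages were not given in the sources used here. RNA of 4 RA-injected and 4 vehicle-injected rats was hybridised together on 8 two-colour Agilent arrays, of which 4 carried RA in the dye Cy5 and 4 in Cy3 (dye-swap). Which arrays hold the same RNA is not named in the sources used here. The p values therefore measure the spread between means of pairs of arrays, 1 of either dye order, in the pairing with the largest p. They may in part reflect technical repeats. The arrays shared 1 slide, whose first row held arrays 1 to 4 and whose second row held arrays 5 to 8, with both dye orders in either row. In tissue blocks, a gain or loss of cells of a type and a change of RNA per cell cannot be told apart.

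Cells divide in a fixed order of phases. In G1, D-type cyclins with the kinases Cdk4 and Cdk6, and E-type cyclins with Cdk2, lift the block that retinoblastoma proteins place on E2F transcription factors, and CDK inhibitors oppose them. In S phase, origins are licensed and fired and the DNA is copied at replication forks supplied with nucleotides, and in mitosis Cdk1 with its A- and B-type cyclins, the Aurora and Polo kinases, the spindle checkpoint and the anaphase-promoting complex drive the separation of chromosomes. Most neurons of the adult hypothalamus have left the cycle, whereas glia, tanycytes lining the third ventricle and immune cells can still divide.

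Each array gave 62976 spots and 30367 distinct probes, and the share of probes well above background was 57.4% to 74.6% for RA and 61.2% to 74.5% for vehicle. Values are log2 ratios of RA over vehicle, so that 0 means equal signal, and a log2 fold change is the mean of these ratios over both dye orders. Between arrays the ratios of all probes correlated with r from -0.09 to 0.62, highest between arrays 6 and 7 and, at 0.55, between arrays 5 and 8. On arrays 6 and 7 choroid plexus genes were low (medians of -1.37 and -1.42 against 0.02 to 0.57 on the others), and on arrays 5 and 8 genes of hypothalamic neurons were low (medians of -0.35 and -0.26 against 0.0001 to 0.18). Results are therefore also given without these arrays.

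In the hypothalamus of RA-injected rats, 20 of the 51 measured cell cycle and replication genes were higher than in vehicle-injected rats at an unadjusted p under 0.01 in limma, the threshold of the study's methods, and none (0) were lower. Genes past that threshold are referred to as called. Adjusted p values are those of limma after Benjamini-Hochberg adjustment over all 30367 probes, made from the largest p of each probe over the possible pairings of arrays. Across all named genes, 3.52% were called higher and 0.792% lower. The called genes were 4 of 13 in G1, 8 of 22 in S and 8 of 16 in mitosis, from *Cdk1*, which rose 3.07-fold, down to *Cdk2*, which rose 1.20-fold. A log2 fold change above 0 was found for 48 of the 51, against 47.6% of all named genes, and those below 0 were *Cdkn1b*, *Cdkn1c* and *Ccne2*. The median log2 fold change was 0.27 over the 51 genes, 0.13 in G1, 0.24 in S and 0.51 in mitosis, and -0.005 over all named genes. The size of these medians depended on the processing. That of mitosis genes was 1.06 after plain background subtraction, 1.17 with Agilent's log ratio and 0.30 without arrays 6 and 7, and that of S-phase genes was 0.36, 0.49 and 0.15 in the same order.

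**Figure D1:**
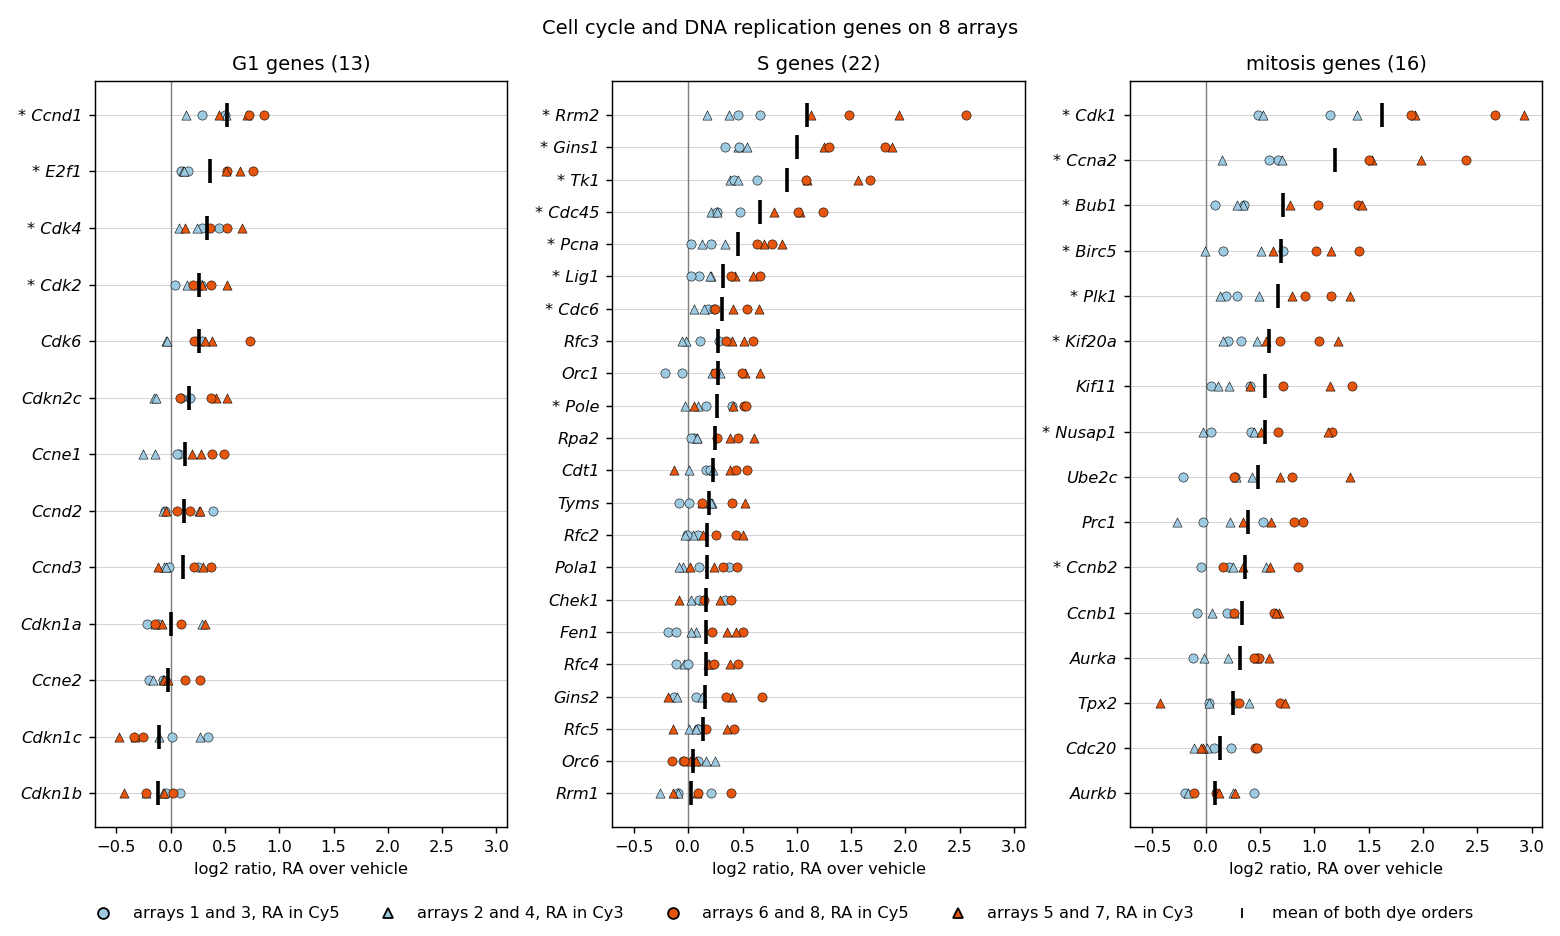
The log2 ratio of RA over vehicle (horizontal axis) is plotted for each of 51 genes (rows, by phase) on each of 8 arrays. Circles are arrays with RA in Cy5 and triangles arrays with RA in Cy3, light blue marks arrays 1 to 4 and orange arrays 5 to 8, the vertical bar is the mean of both dye orders, and an asterisk marks the 20 genes with an unadjusted p under 0.01 in limma. Most points lie right of 0, and the orange points of *Cdk1*, *Ccna2*, *Rrm2*, *Gins1* and *Tk1* lie right of all their light blue points.

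No gene of the array passed adjustment over all 30367 probes in limma (0 at an adjusted p under 0.05, which is 0% of probes, with 3291 at an unadjusted p under 0.05), and the lowest adjusted p among the members was 0.222, that of *Ccnd1*. Adjustment depended on how arrays were paired or blocked. With the slide row as a block and pairs made within a row, 575 probes (1.89%) and 14 members had an adjusted p under 0.05 in limma, all 14 of them higher and led by *Cdc45* (adjusted p = 0.00417), and with the pair as a random block it was 290 probes and 7 members. Treating the 8 arrays as independent gave 935 probes and 20 members, but it counts shared RNA as separate animals and so overstates the replication. Which pairing or block matches the shared RNA could not be settled, since dye-swap partners are not named. At an unadjusted p under 0.05, 34 of the 51 members were higher and none (0) lower, against 8.48% of all named genes higher. On every one of the 8 arrays, 18 members had a log2 ratio above 0, against 4.07% of all named genes. An exact sign-flip permutation test on 4 pairs of arrays cannot give a two-sided p below 0.125, so the calls rest on the model fitted by limma. How much they owe to the variance that limma shares between probes was not tested. Left out of the fit, arrays 8 and 5 reduced the called members from 20 to 5 (*Ccnd1*, *Cdk4*, *Tk1*, *Cdk1* and *Ccnb2*), and arrays 6 and 7 reduced them to 12. Over all 15159 named genes, those called higher fell from 534 to 246 and to 318 in the same order.

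In G1, *Ccnd1*, *Cdk4*, *Cdk2* and *E2f1* rose after RA, by 1.43-, 1.26-, 1.20- and 1.29-fold, whereas none of the 4 CDK inhibitors was called in either direction. Of the D-type cyclins 1 of 3 was called, of the G1 kinases 2 of 3 and of the E-type cyclins 0 of 2. *Ccnd1*, which encodes cyclin D1 and answers to growth factor signals, had log2 ratios of 0.29, 0.14, 0.50 and 0.51 on arrays 1 to 4 and 0.44, 0.86, 0.70 and 0.72 on arrays 5 to 8. All 8 ratios were above 0, and the RA level (9.25 to 9.88 on the log2 intensity scale) and the vehicle level (8.72 to 9.34) overlapped. Its log2 fold change was 0.52 with a standard error of 0.09 (adjusted p = 0.222), and it was under the threshold in all 33 alternative analyses. The other D-type cyclins had log2 fold changes of 0.12 (*Ccnd2*, adjusted p = 0.618) and 0.11 (*Ccnd3*, adjusted p = 0.627), and neither was called in any of the alternatives.

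*Cdk4*, the kinase partner of the D-type cyclins, had log2 ratios of 0.44, 0.07, 0.29 and 0.24 on arrays 1 to 4 and 0.13, 0.52, 0.66 and 0.36 on arrays 5 to 8. These were above 0 on all arrays and overlapped between the slide rows. The fold change was 0.34 on the log2 scale with a standard error of 0.07 (adjusted p = 0.254). *Cdk6*, the other partner, was at 0.26 (standard error 0.08, adjusted p = 0.314), just outside the threshold, and its vehicle signal was well above background on 1 array. *Cdk2*, the partner of E-type cyclins and of cyclin A, rose by 0.26 (standard error 0.06, adjusted p = 0.268), with ratios from 0.04 on array 3 to 0.52 on array 7. *Ccne1* had a log2 fold change of 0.13 (adjusted p = 0.655) and *Ccne2* of -0.02 (adjusted p = 0.945).

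*E2f1*, a transcription factor that switches on genes for S phase, had log2 ratios of 0.09, 0.11, 0.16 and 0.12 on arrays 1 to 4 and 0.64, 0.52, 0.51 and 0.76 on arrays 5 to 8. All 4 ratios of the second slide row were higher than all 4 of the first. Its log2 fold change was 0.36 (standard error 0.10, adjusted p = 0.305), and without arrays 8 and 5 it was 0.25 and no longer called. A dimmer probe of *E2f1* was at 0.22 and was not called.

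Among the CDK inhibitors, *Cdkn1a* (p21, a target of p53) had log2 ratios from -0.21 to 0.31, above 0 on 3 of 8 arrays, and a log2 fold change of 0.001 (standard error 0.07, adjusted p = 0.998). The sign of that value differed from that given here in 13 of 33 alternatives. *Cdkn1b* (p27, which restrains Cdk2) was at -0.12 (standard error 0.06, adjusted p = 0.576) and below 0 on 6 of 8 arrays. *Cdkn2c* (p18, which restrains Cdk4 and Cdk6) was at 0.17 (adjusted p = 0.536). The pattern of *Cdkn1c* (p57) differed between slide rows. Its log2 ratios were 0.01, -0.11, 0.35 and 0.27 on arrays 1 to 4 and -0.47, -0.25, -0.33 and -0.33 on arrays 5 to 8, so that every array of the second row lay below every array of the first. Over all arrays its log2 fold change was -0.11 (adjusted p = 0.807), and on arrays 5 to 8 alone it was -0.35 and was called lower, the only call of a lower member in the 33 alternatives.

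In S phase, all 22 measured genes had a log2 fold change above 0, from 0.02 for *Rrm1* to 1.10 for *Rrm2*, and 8 of them rose at the threshold. These were 3 of 7 genes of origin licensing and firing (*Gins1*, *Cdc45* and *Cdc6*), 3 of 10 of the replication fork (*Pcna*, *Lig1* and *Pole*) and 2 of 4 of nucleotide supply (*Rrm2* and *Tk1*). The checkpoint kinase gene *Chek1* was at 0.17 (adjusted p = 0.406).

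Promoters of S-phase genes are known to carry binding motifs of E2F factors, so promoter sequence from RefSeq (build GRCr8) was searched for TTTCCCGC, TTTGGCGC, TTTCGCGC and TTTGCCGC on both strands, from 250 bases before to 50 bases after the start site. A window was at hand for 43 of the 56 genes. At least 1 of these letters' runs was present in 9 of 20 S-phase promoters (45.0%), in 1 of 16 for mitosis, in 0 of 7 for G1 and in 2.14% of 33469 promoters in all. Of the called S-phase genes, *Gins1*, *Lig1* and *Pole* held a match and *Pcna*, *Cdc45* and *Tk1* did not, and of those not called *Cdt1*, *Chek1*, *Pola1*, *Rfc3*, *Rpa2* and *Tyms* held one. Below, *Gins1* is shown because it had the highest log2 fold change among called S-phase genes with a match, at chr3:160184670-160184969 (plus strand), and *Lig1* as a replication fork gene, at chr1:83242920-83243219 (plus strand), with E2F matches in capitals. The capitals of *Gins1* are TTTGGCGC and its reverse complement GCGCCAAA, overlapping by 4 bases and starting 25 and 21 bases before the start site, and those of *Lig1* are GCGCGAAA, 19 bases after it.
Gins1: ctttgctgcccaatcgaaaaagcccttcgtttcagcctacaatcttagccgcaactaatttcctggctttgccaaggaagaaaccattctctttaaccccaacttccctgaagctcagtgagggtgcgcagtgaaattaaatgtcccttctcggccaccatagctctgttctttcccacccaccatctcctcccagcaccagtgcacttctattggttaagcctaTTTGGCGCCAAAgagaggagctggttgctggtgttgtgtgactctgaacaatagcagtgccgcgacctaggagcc
Lig1: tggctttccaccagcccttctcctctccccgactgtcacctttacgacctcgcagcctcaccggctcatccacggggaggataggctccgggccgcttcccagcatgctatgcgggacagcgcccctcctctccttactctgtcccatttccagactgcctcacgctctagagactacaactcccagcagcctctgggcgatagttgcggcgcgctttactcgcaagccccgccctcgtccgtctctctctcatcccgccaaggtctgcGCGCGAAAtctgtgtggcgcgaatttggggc
A match describes letters of the reference genome only, and binding was not measured on these arrays.

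*Gins1* (probe A_42_P712191) encodes a subunit of the GINS complex, which joins the replicative helicase when an origin fires. Its log2 ratios were 0.34, 0.46, 0.46 and 0.54 on arrays 1 to 4 and 1.25, 1.81, 1.88 and 1.29 on arrays 5 to 8. All ratios were above 0, and on the second slide row each was more than that of any array of the first. The log2 fold change was 1.01 with a standard error of 0.22 (adjusted p = 0.268), a 2.01-fold rise. *Gins2*, another subunit, was at 0.15 (adjusted p = 0.683) with a vehicle signal that was not well above background on any array.

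*Cdc45*, which completes the active helicase, had log2 ratios of 0.48, 0.21, 0.27 and 0.27 on arrays 1 to 4 and 0.79, 1.24, 1.03 and 1.01 on arrays 5 to 8. It rose by 0.66 on the log2 scale (standard error 0.14, adjusted p = 0.258). *Cdc6*, which loads the helicase on origins, rose by 0.31 (standard error 0.08, adjusted p = 0.283), and its vehicle signal was not well above background on any array. Of the other licensing genes, *Cdt1* was at 0.23 (adjusted p = 0.347), *Orc1* at 0.27 (adjusted p = 0.370) and *Orc6* at 0.04 (adjusted p = 0.842).

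*Rrm2* encodes the regulated subunit of ribonucleotide reductase, which makes deoxynucleotides. Its log2 ratios of 0.66, 0.38, 0.46 and 0.17 on arrays 1 to 4 and 1.13, 2.56, 1.94 and 1.48 on arrays 5 to 8 were the widest of the S-phase genes. The log2 fold change was 1.10 (standard error 0.29, adjusted p = 0.287), and it was 0.71 without arrays 6 and 7 and 1.03, no longer called, without arrays 8 and 5. A dimmer probe of *Rrm2*, not well above background in any vehicle channel, was at 0.25 and was not called. *Rrm1*, the partner subunit, was at 0.02 (adjusted p = 0.950).

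*Tk1*, thymidine kinase of the salvage pathway, had log2 ratios of 0.63, 0.38, 0.42 and 0.45 on arrays 1 to 4 and 1.09, 1.67, 1.56 and 1.09 on arrays 5 to 8. The lowest ratio of the second row was above the highest of the first. It rose by 0.91 on the log2 scale (standard error 0.18, adjusted p = 0.246), or 1.88-fold, and was called in 31 of 33 alternatives. *Tyms*, which makes thymidylate by the other route, was at 0.19 (adjusted p = 0.411).

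At the fork, *Pcna*, the sliding clamp of DNA polymerases and a common marker of replicating cells, had log2 ratios of 0.21, 0.12, 0.03 and 0.33 on arrays 1 to 4 and 0.70, 0.77, 0.86 and 0.63 on arrays 5 to 8. RA levels (10.54 to 11.34 on the log2 intensity scale) lay above all vehicle levels (10.33 to 10.53). The log2 fold change of *Pcna* was 0.46 (standard error 0.12, adjusted p = 0.285), and without arrays 8 and 5 it was 0.39 and no longer called. *Lig1*, which seals Okazaki fragments, rose by 0.32 (standard error 0.09, adjusted p = 0.297). *Pole*, the catalytic subunit of the leading-strand polymerase, rose by 0.27 (standard error 0.07, adjusted p = 0.276), with a mean ratio of 0.40 for RA in Cy5, of 0.13 for RA in Cy3 and a vehicle signal well above background on 1 array. The 7 fork genes that were not called had log2 fold changes from 0.13 (*Rfc5*) to 0.27 (*Rfc3*), among them the clamp loader subunits *Rfc2* to *Rfc5* and the flap endonuclease gene *Fen1* (0.16, adjusted p = 0.610).

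**Figure D2:**
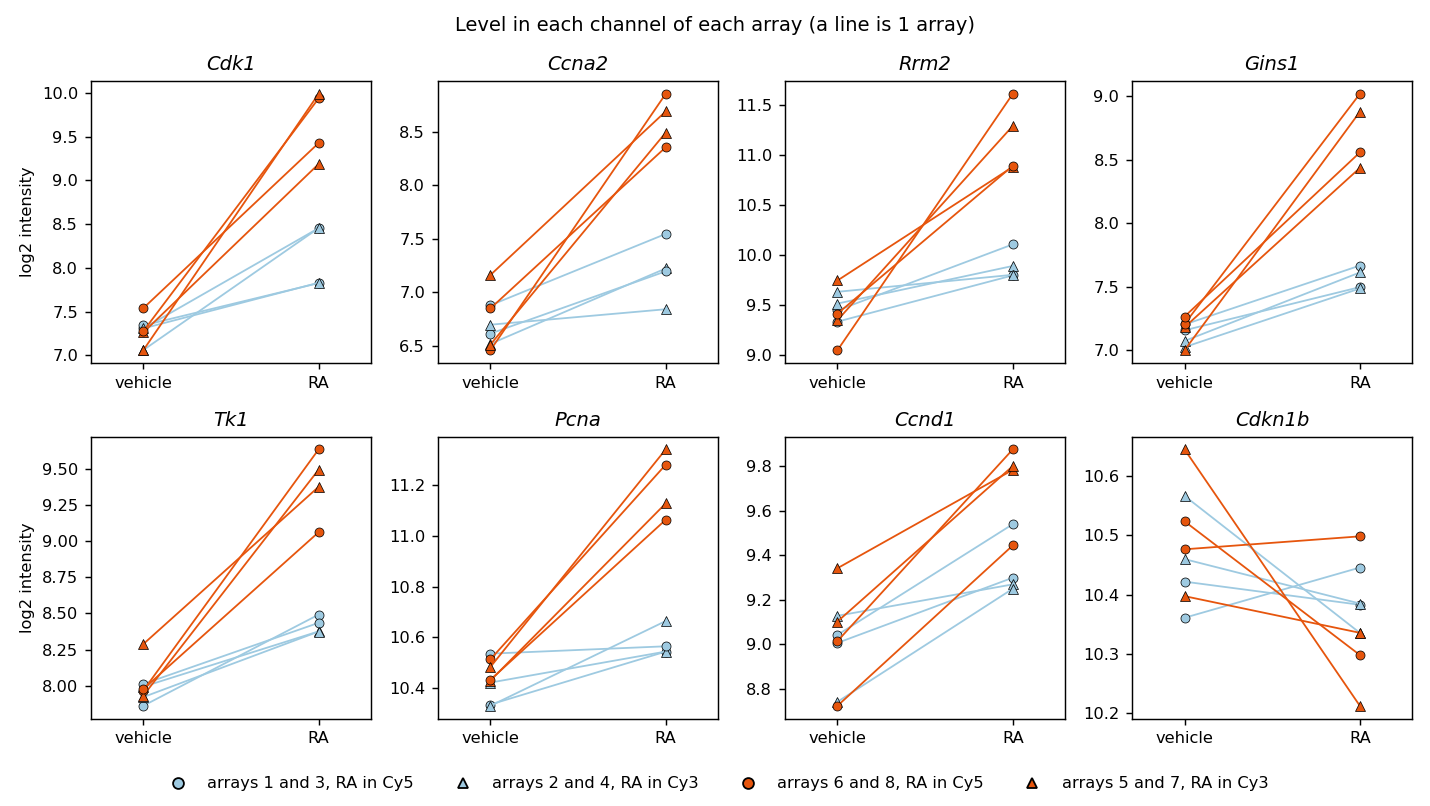
The log2 intensity (vertical axis, own range in each panel) in the vehicle and the RA channel is plotted for 8 genes, after loess and quantile normalisation of the mean of both channels. A line joins the channels of 1 array, with colours for slide rows and symbols for dye orders. For *Cdk1* the vehicle points lie between 7.06 and 7.54 and the RA points between 7.83 and 9.99, and for *Cdkn1b* the channels overlap.

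In mitosis, all 16 measured genes had a log2 fold change above 0, and 8 of them rose at the threshold. They were 4 of 7 mitotic cyclins and kinases (*Cdk1*, *Ccna2*, *Plk1* and *Ccnb2*), 2 of 4 genes of the spindle checkpoint and anaphase-promoting complex group (*Bub1* and *Birc5*) and 2 of 5 of spindle and cytokinesis (*Kif20a* and *Nusap1*). Of the other 8, 6 had an unadjusted p between 0.01 and 0.05 in limma, and *Tpx2* and *Aurkb* were above that.

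*Cdk1* (probe A_42_P580844), the kinase that starts mitosis, had the highest log2 fold change of all members. Its log2 ratios were 1.15, 1.40, 0.48 and 0.52 on arrays 1 to 4 and 1.93, 2.66, 2.93 and 1.89 on arrays 5 to 8. The vehicle level was 7.06 to 7.54 on the log2 intensity scale and the RA level 7.83 to 9.99, with no overlap, and RA was highest on the second slide row. The log2 fold change was 1.62 with a standard error of 0.31 (adjusted p = 0.227), and the 2 dye orders had means of 1.55 (RA in Cy5) and 1.69 (RA in Cy3). It was 1.52 without arrays 8 and 5, 1.23 without arrays 6 and 7 and 0.89 on arrays 1 to 4 alone, and was called in 32 of 33 alternatives.

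*Ccna2*, the cyclin A that partners Cdk2 and then Cdk1, had log2 ratios of 0.67, 0.70, 0.58 and 0.14 on arrays 1 to 4 and 1.53, 2.39, 1.98 and 1.50 on arrays 5 to 8. It rose by 1.19 on the log2 scale (standard error 0.27, adjusted p = 0.268), and the other probe of *Ccna2* gave 1.01 and was also called. Its vehicle signal was well above background on 4 arrays, all with vehicle in Cy5, and its RA signal on 8. *Ccnb2*, a B-type cyclin, rose by 0.36 (standard error 0.09, adjusted p = 0.284), with no array on which vehicle was well above background. *Ccnb1*, the main B-type cyclin, was at 0.33 (adjusted p = 0.326).

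*Plk1*, the Polo kinase that matures spindle poles, had log2 ratios of 0.29, 0.49, 0.18 and 0.13 on arrays 1 to 4 and 0.80, 1.16, 1.33 and 0.92 on arrays 5 to 8. It rose by 0.66 (standard error 0.16, adjusted p = 0.270). The Aurora kinase genes were at 0.32 for *Aurka* (adjusted p = 0.324) and 0.09 for *Aurkb* (adjusted p = 0.783).

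*Bub1*, a kinase of the spindle checkpoint, had log2 ratios of 0.35, 0.34, 0.09 and 0.29 on arrays 1 to 4 and 0.78, 1.40, 1.43 and 1.03 on arrays 5 to 8. Its log2 fold change was 0.71 (standard error 0.19, adjusted p = 0.286), whereas another probe of the gene, not well above background on any array, gave 0.02. *Birc5* (survivin, a subunit of the chromosomal passenger complex) had log2 ratios of 0.71, 0.51, 0.16 and -0.0035 on arrays 1 to 4 and 0.62, 1.41, 1.15 and 1.02 on arrays 5 to 8. It rose by 0.70 (standard error 0.17, adjusted p = 0.268), although array 4 was just below 0. *Ube2c* and *Cdc20*, which act with the anaphase-promoting complex, were at 0.48 (adjusted p = 0.322) and 0.13 (adjusted p = 0.445).

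*Kif20a*, a kinesin of cytokinesis, rose by 0.58 (standard error 0.14, adjusted p = 0.268), with ratios from 0.16 to 1.22. *Nusap1*, which binds spindle microtubules, rose by 0.54 (standard error 0.16, adjusted p = 0.306) with ratios from -0.03 to 1.16, and was the called member nearest to the threshold. Just outside it were *Ube2c*, *Aurka*, *Kif11* (a spindle kinesin, 0.55, adjusted p = 0.326) and *Ccnb1*. *Prc1*, which bundles microtubules between the separating chromosomes, was at 0.39 (adjusted p = 0.358), and its dimmer probe gave 0.21 and was called.

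Promoters of mitotic genes are known to carry the cell cycle genes homology region (CHR) and CCAAT boxes. The CHR letters TTTGAA or TTCGAA, on either strand, were present in 10 of 16 mitosis promoters (62.5%), in 2 of 20 S-phase promoters, in 0 of 7 G1 promoters and in 19.7% of all promoters. CCAAT, on either strand, was present in 12 of 16 (75.0%), 11 of 20 and 3 of 7, and in 37.5% of all. Among the called genes, *Birc5*, *Ccnb2*, *Cdk1*, *Nusap1* and *Plk1* held a CHR match and *Bub1* and *Kif20a* did not. Of the measured mitosis genes not called, *Cdc20* and *Prc1* held one and *Aurka*, *Ccnb1* and *Kif11* did not. The mitosis promoters also include those of genes without a probe, of which *Mki67*, *Top2a* and *Bub1b* held a match and *Melk* did not. The promoters of *Cdk1* (chr20:19265043-19265342), *Plk1* (chr1:186147408-186147707) and *Birc5* (chr10:103571896-103572195), all on the plus strand of GRCr8, are shown because they hold CHR close to the start site in genes that rose, with CHR and, in *Cdk1*, the E2F match TTTCGCGC in capitals.
Cdk1: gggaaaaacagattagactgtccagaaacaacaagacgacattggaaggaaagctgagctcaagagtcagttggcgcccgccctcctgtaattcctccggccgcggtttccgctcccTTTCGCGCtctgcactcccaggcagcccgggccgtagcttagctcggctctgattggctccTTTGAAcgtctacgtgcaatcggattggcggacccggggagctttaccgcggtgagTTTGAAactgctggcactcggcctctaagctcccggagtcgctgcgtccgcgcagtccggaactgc
Plk1: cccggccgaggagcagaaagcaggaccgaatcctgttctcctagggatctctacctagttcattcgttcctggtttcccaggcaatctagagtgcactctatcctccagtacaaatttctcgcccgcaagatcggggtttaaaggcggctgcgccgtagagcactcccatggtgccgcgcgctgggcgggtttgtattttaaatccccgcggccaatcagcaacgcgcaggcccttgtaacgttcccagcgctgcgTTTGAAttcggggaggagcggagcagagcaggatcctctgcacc
Birc5: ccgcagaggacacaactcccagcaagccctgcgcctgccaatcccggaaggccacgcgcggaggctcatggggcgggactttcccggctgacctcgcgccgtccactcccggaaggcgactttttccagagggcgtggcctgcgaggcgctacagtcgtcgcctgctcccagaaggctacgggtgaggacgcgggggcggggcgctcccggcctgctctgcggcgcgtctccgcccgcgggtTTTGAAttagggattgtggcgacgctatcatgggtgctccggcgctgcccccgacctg
The CHR matches of *Cdk1* start 72 and 16 bases before the start site and its E2F match 133 bases before it, that of *Birc5* starts 8 bases before and that of *Plk1* 6 bases after. CCAAT occurred 3 times in the *Cdk1* window and 1 time in each of the other two. The 13 genes without a window were *Ccnd1*, *Ccnd2*, *Ccne2*, *Cdk6*, *Cdkn1c*, *E2f1*, *Cdc6*, *Orc1*, *Rrm2*, *Aurkb*, *Ccna2*, *Tpx2* and *Ube2c*.

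Ratios were higher on the second slide row. The median log2 ratio of the 51 genes ran from 0.09 to 0.19 in the first row (arrays 1 to 4) and from 0.32 to 0.52 in the second (arrays 5 to 8), whereas that of all named genes stayed between -0.008 and 0.008 on every array. For mitosis genes the medians were 0.06 to 0.38 and 0.53 to 1.13, for S-phase genes 0.07 to 0.16 and 0.29 to 0.51, and for G1 genes -0.06 to 0.16 and 0.13 to 0.37. In 20 of the 51 genes every array of the second row was above every array of the first, against 5.3% of all named genes. With arrays 1 to 4 alone 11 members were called and none (0) of them lower, against 2.4% of all named genes called higher. With arrays 5 to 8 alone 34 were called, of which 1 (*Cdkn1c*) was lower and the rest higher, against 5.57% of all named genes called higher. Each row may hold RNA of different rats, and row and rat cannot be told apart.

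**Figure D3:**
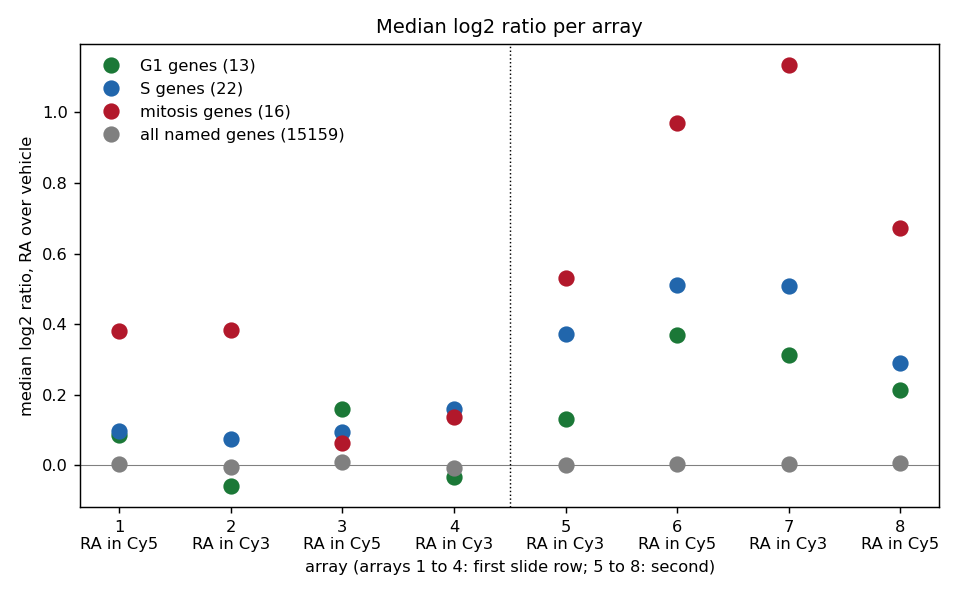
The median log2 ratio of RA over vehicle (vertical axis) is plotted for each array (horizontal axis, with its dye order) for 13 G1, 22 S and 16 mitosis genes and for 15159 named genes. The dotted line separates the slide rows. Mitosis genes reach 0.97 and 1.13 on arrays 6 and 7, and all named genes stay within 0.008 of 0.

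Both dye orders were examined. A mean ratio above 0 was found for 47 of the 51 genes with RA in Cy5 and for 46 with RA in Cy3. The medians per array averaged 0.28 (RA in Cy5) and 0.29 (RA in Cy3).

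Many members had signals near background in the vehicle tissue. Of the 51 genes, 31 were well above background in both channels on all 8 arrays, 13 of which were called. Vehicle was not well above background on any array for 6 genes (*Gins2*, *Cdc6*, *Cdt1*, *Orc1*, *Ccnb2* and *Tpx2*), and RA was so for 0 genes. RA itself was well above background on only 3 arrays for *Orc1*, 5 for *Tpx2* and 4 for each of the others. For these 6 the RA level was set against a bound on vehicle. It was 1.23-fold (*Cdc6*) and 1.27-fold (*Ccnb2*) that bound for the called genes (adjusted p = 0.283 and 0.284), and 1.11- to 1.20-fold for the others. Since RA was also near background on some arrays, these are not firm lower limits. The bound sets the RA mean against the lowest signal well above background or the probe's own signal, whichever is higher, and it is open to dye bias within an array.

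More arrays were well above background in RA than in vehicle for 17 genes, and more in vehicle for 1 (*Ccne2*). The dye mattered here. Across members and arrays, RA was well above background in 97.1% of cases in Cy5 and 76.0% in Cy3, and vehicle in 80.9% in Cy5 and 66.7% in Cy3, so that RA was ahead within either dye. In mitosis these shares were 98.4% and 79.7% for RA and 79.7% and 56.3% for vehicle. Over all probes, the share of an array in Cy5 was 73.3% to 74.6% for RA and 67.6% to 74.5% for vehicle. In Cy3 it was 57.4% to 63.5% for RA and 61.2% to 66.5% for vehicle. RA and vehicle in the same dye lie on different arrays, and genes ahead in RA were not counted over all named genes. *Ccna2* was well above background in vehicle on 4 arrays, all with vehicle in Cy5 and 0 with it in Cy3, and in RA on 8. *Cdk6* was so in vehicle on 1 array (in Cy5) and in RA on 6, of which 4 were in Cy5 and 2 in Cy3.

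**Figure D4:**
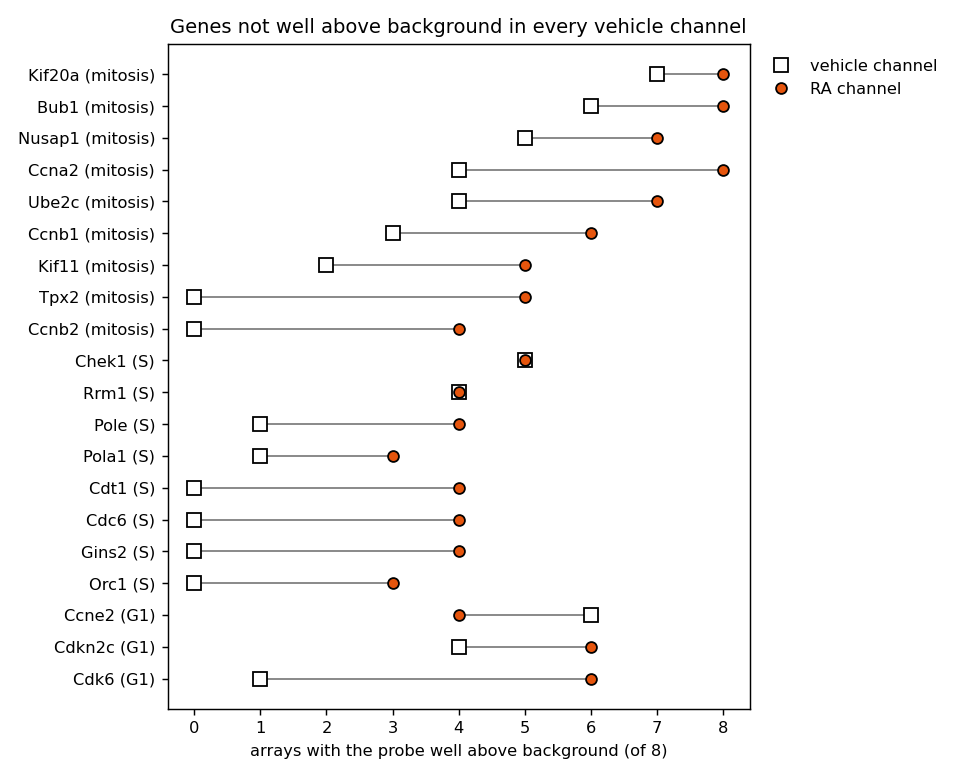
The number of arrays on which a gene was well above background (horizontal axis, of 8) is plotted for the vehicle channel (open squares) and the RA channel (orange circles) for the 20 genes that were not so in every vehicle channel. RA lies to the right of vehicle for 17 genes, at the same place for *Chek1* and *Rrm1*, and to the left for *Ccne2*.

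Other genes of the pathway were taken from a list of further cell cycle genes. Of the 86 on it that were measured, 17 were called higher (19.8%) and none (0) lower, with a median log2 fold change of 0.11, and 34 were higher at an unadjusted p under 0.05 in limma. In G1 3 of 19 rose, among them *Myc*, a growth regulator (0.63, standard error 0.15, adjusted p = 0.268), *Rb1*, the retinoblastoma protein (0.23, adjusted p = 0.268), and *Tfdp1*, the partner of E2F factors (0.19, adjusted p = 0.268). In S phase 3 of 32 rose. These were *Chaf1b*, a chromatin assembly factor (0.91, adjusted p = 0.270), *Pold1*, the catalytic subunit of the lagging-strand polymerase (0.52, adjusted p = 0.257), and *Timeless*, which protects forks (0.50, adjusted p = 0.257). In mitosis 11 of 35 rose, of which *Dlgap5* (0.52), *Pttg1* (securin, 0.48) and *Cdca3* (1.22) had the smallest p. *Cdca3*, which promotes entry into mitosis, ranged from 0.08 on array 4 to 2.60 on array 6.

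Genes of dividing cells can come from several cell types, and 3 lists of marker genes were higher on the same arrays. Across all named genes, 3.52% were called higher and 0.792% lower. Of 12 microglia genes 6 were called higher and 1 lower, with a median log2 fold change of 0.60 and a summed intensity of 42550 to 105300 in RA and 33520 to 56630 in vehicle. For 12 monocyte and macrophage genes 6 were higher and 0 lower, with a median of 0.64 and sums of 11970 to 51590 and 7461 to 13970. Among 11 genes of reactive astrocytes 9 were higher and 0 lower, with a median of 1.40 and sums of 9940 to 49330 and 5198 to 8786. The medians of these lists were also higher on every array of the second slide row (at least 0.80, 0.63 and 1.76) than on any of the first (at most 0.38, 0.32 and 1.02). Their part in the values of the cell cycle genes was not tested.

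The remaining marker lists held fewer calls, to be read against 3.52% of all named genes called higher and 0.792% lower. Of 9 astrocyte genes 0 were called higher and 2 lower (median -0.17, sums of 149600 to 192700 in RA and 164500 to 207800 in vehicle), and of 10 oligodendrocyte genes 0 and 2 (median -0.19, sums of 103900 to 152900 and 122800 to 194000). For 9 genes of oligodendrocyte precursors, cells that divide in the adult brain, 0 were higher and 1 lower (median -0.08, sums of 16440 to 19090 and 17490 to 20340). Of 9 endothelial genes 0 were called (median -0.01, sums of 7396 to 8971 and 7429 to 9791). Of 9 genes of tanycytes and ependyma 2 were higher and 0 lower (median 0.02, sums of 9708 to 22830 and 8792 to 14900). That list shares *Vim* with the list of reactive astrocytes. No choroid plexus gene of 10 was called (0, median -0.13, sums of 2138 to 140800 and 1989 to 253300), nor any of 4 erythroid genes (0, median -0.04, sums of 86830 to 211900 and 97200 to 209200). The median of the erythroid genes ran from -0.82 and -0.68 on arrays 5 and 8, with all 4 genes below 0, to 0.80 and 0.60 on arrays 3 and 4, with all 4 above 0. Of 19 genes of hypothalamic neurons 0 were higher and 1 lower (median -0.05, sums of 135500 to 190600 and 110700 to 228800), and 18 of them were well above background on some array, *Nr5a1* being the exception.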

How the data were processed

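Hypothalamic RNA was measured on 8 two-colour arrays. The authors deposited raw spot intensity in either dye on a linear scale, with Agilent's log10 ratio of Cy5 over Cy3, which is 0 at some dim spots. The authors also deposited normalised log2 ratios, whose columns ran as RA over vehicle (medians of -0.00295 to 0.0134, r of 0.999 to 1.00 with loess ratios without background correction). Their methods name R, limma, loess, averaging of identical probes, dye-swaps as a block and an unadjusted p under 0.01, and no background correction.

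Here R 4.3.3 and limma 3.58.1 were used. Median signals were taken, since the arrays give no mean spot signals, with normexp (offset 50), outlier spots left out, control spots given no weight in loess, and spots of a probe averaged. Probes were named through transcript accessions in RefSeq (GRCr8), 18006 of 30367. Limma was fitted to 4 pair means, a pair being 1 array of either dye order, for all 24 pairings, and each probe kept its largest p and the standard error of that fit. Benjamini-Hochberg adjustment covered 30367 probes, of which 20 lacked a value on some array. A probe counted as well above background if a share of at least 0.5 of its spots carried Agilent's mark. Precision is limited by the number of arrays. The fit was tested on data simulated with a fixed pairing, errors independent between probes and equal effects on all arrays. No difference between slide rows was simulated, so that test does not cover the difference seen here.

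Members, gene lists and marker lists were chosen with earlier results of these data known. By rule the text names every member with an unadjusted p under 0.01, the 3 highest and 3 lowest of each phase among members well above background on all 8 arrays in RA or vehicle, 8 members always, and up to 3 other pathway genes per list. Further members were named after their values were seen. The 33 alternatives cover background, normalisation, dim probes, outlier spots, choice of probe, pairing, dye order, slide row and arrays left out.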

Additional observations from a re-analysis of the deposited data

Results flagged for a closer look

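Dixon's test was applied within each dye order (4 arrays) to 45 measures, and singled out an array in 3 of 90 groups, where chance gives about 1 in 20.

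*Aurka*, the Aurora A kinase, stood apart on array 3, where its log2 ratio was -0.12, while the rest of the arrays with RA in Cy5 had 0.44 to 0.49. *Cdc6*, the helicase loader, stood apart on array 6 with 0.54, while the rest of that dye order had 0.18 to 0.24. *Dlgap5*, a spindle protein, stood apart on array 7 with 0.76, while the rest of the arrays with RA in Cy3 had 0.26 to 0.33.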

How the results depend on the processing

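The called members were 20 of 51. With another treatment of the signals they were 5 after plain background subtraction, 1 (*Ccnd1*) with Agilent's log ratio, 17 without background correction and 17 with the deposited values. Over all 15159 named genes, 150, 112, 506 and 493 were called higher in the same order, against 534. When the 8 arrays were taken as independent with a dye term, which counts shared RNA as separate animals, they were 33. In the single pairing with the most calls over all probes they were 35, and 21 in that with the fewest (21 to 37 over the 24 pairings). With the pair as a random block they were 29. The named genes called higher were 1067, 1314, 557 and 843 in the same order. By slide row they were 11 with arrays 1 to 4, 34 with arrays 5 to 8 and 30 with the row as a block, beside 364, 844 and 873 named genes called higher. When 1 array of either dye order was left out (16 leave-one-out fits), they were 5 (without arrays 8 and 5) to 26, with 9, 11 and 12 without arrays 8 and 7, 6 and 5, and 6 and 7. In these fits 246 (without arrays 8 and 5) to 587 named genes were called higher. The median log2 ratio of the members was 0.48 with plain subtraction and 0.57 with Agilent's log ratio against 0.27, and 0.18 to 0.32 in the leave-one-out fits. Over all probes the calls ran from 237 (plain subtraction) to 3142 (most calls) against 988. In every one of the 33 alternatives at least 43 members had a log2 fold change above 0. The causes of these shifts were not tested. The labels do not name dye-swap partners, so no single pairing was chosen and the values given come from all 24. Arrays 6 and 7, and arrays 5 and 8, correlated most closely. The pairings that join them called 21 and 22 members, and 1081 and 1221 probes, with 0 probes at an adjusted p under 0.05 in limma. Whether these arrays share RNA was not tested.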
